A study of Arabidopsis thaliana with 9 samples.

Results

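Steady-state nuclear RNA was compared between nrpe1-11 and nrpd1-3, mutant lines named for the largest subunits of the plant RNA polymerases Pol V and Pol IV. The genes compared were nuclear genes with at least 20 counts in either of these libraries, which left 2858 of the 32399 nuclear genes listed, or 8.82%. Of these, 1985 reached 20 counts in both libraries, 586 only in nrpe1-11 and 287 only in nrpd1-3. The highest count of the pair was exactly 20 for 148 genes just inside the limit and exactly 19 for 168 genes just outside it. All libraries came from leaves of 3-week-old Arabidopsis thaliana, raised at 22 °C under days of 16 h and nights of 8 h. The groups were nrpe1-11, nrpd1-3 and the wild-type accession Col-0, which carries neither allele, each with 1 library of nuclear RNA (RNA) and 1 of nascent RNA from a nuclear run-on (NRO). In a run-on, polymerases already engaged in isolated nuclei extend their transcripts with a labelled nucleotide. The RNA samples carry a protocol text that repeats the bead capture of the run-on samples, so how far the preparations differed is known only from the sample names and molecule labels. A further 3 samples of chromatin precipitation were not analysed here. Each gene is represented by 1 mutant line, and the counts are sums over whole leaves, in which fewer cells of a type and less RNA per cell cannot be told apart.

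Pol IV and Pol V are relatives of Pol II found in plants that act in RNA-directed DNA methylation. Pol IV transcripts are copied into double-stranded RNA and cut into small interfering RNAs, and Pol V makes the scaffold transcripts at which these small RNAs guide DNA methylation. The series asks how both polymerases affect termination of Pol II transcription. Setting nrpe1-11 directly against nrpd1-3 asks where loss of the scaffold polymerase differs from loss of the upstream, small-RNA-producing one.

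The RNA libraries held 493080 nuclear gene counts in nrpe1-11, 386011 in nrpd1-3 and 709905 in Col-0. A single 18S ribosomal RNA locus, AT3G41768, took 43.6% of them in nrpe1-11, 37.9% in nrpd1-3 and 53.6% in Col-0. Levels are given as CPM, reads per gene after each library was scaled with edgeR's TMM factors, and ratios are nrpe1-11 over nrpd1-3. With 1 library per group there was no replicate and no test. A size rule was used in its place: the log2 ratio had to be 1 or more, or −1 or less, with a 95% counting interval of the ratio that excludes 1. Intervals cover counting error only, and a gene is called higher or lower in nrpe1-11 only where it met the rule.

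The targeted genes come first, as a check of the labels. NRPE1 (AT2G40030), which encodes the largest Pol V subunit, had 8 RNA counts in nrpe1-11, 6 in nrpd1-3 and 6 in Col-0. In NRO it had 82, 81 and 24 counts, which scaled for depth are 8.80, 9.19 and 11.9 CPM. NRPD1 (AT1G63020), which encodes the largest Pol IV subunit, had 3 RNA counts in nrpe1-11, 8 in nrpd1-3 and 0 in Col-0. Its NRO counts were 19 in nrpe1-11, 94 in nrpd1-3 and 9 in Col-0 (2.04, 10.7 and 4.48 CPM). Nascent NRPD1 was thus highest in the library labelled as its mutant. Neither gene reached 20 RNA counts, and a total per gene cannot reveal a disrupted allele. Every direction below is therefore that of the libraries labelled nrpe1-11 and nrpd1-3. Leaf identity was in place in both: the mesophyll markers RBCS1A, CAB1 and RCA summed to 3061 counts in nrpe1-11 and 1654 in nrpd1-3, while all 5 flower and both seed markers were at 0. Of the guard cell, phloem, trichome and dividing cell markers, none reached the count minimum.

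By the size rule 304 of 2858 genes differed, which is 10.6% of those compared. In nrpe1-11, 157 genes were higher (5.49%) and 147 lower (5.14%). The median log2 ratio was 0.06, with the middle 50% of genes between −0.37 and 0.43 and the middle 90% between −1.01 and 1.04. Of the higher genes, 119 had reached 20 counts only in nrpe1-11, and of the lower genes 87 had done so only in nrpd1-3, so for these the count limit and the call rest on the same values. When scaled by library totals in place of TMM, all log2 ratios shifted by −0.22 and the split of higher to lower calls became 94 to 260. Genes that met the rule were distributed evenly over the chromosomes, from 10.2% of genes on chromosome 5 and chromosome 2 to 11.3% on chromosome 3.

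**Figure D1:**
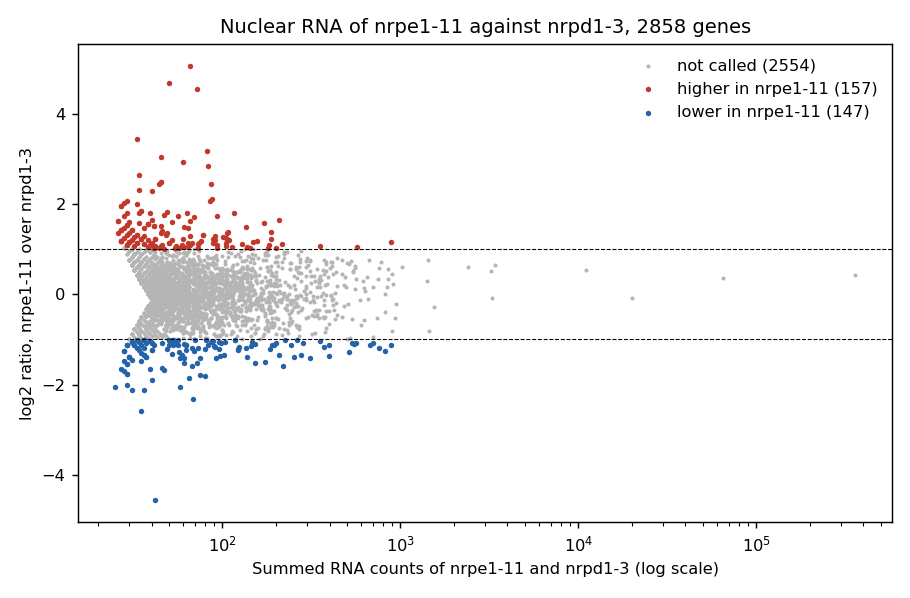
Log2 ratio of RNA, nrpe1-11 over nrpd1-3 (vertical axis), against the summed RNA counts of both libraries (horizontal axis, log scale) for 2858 genes, with a prior count of 2. Red and blue points met the size rule, 157 higher and 147 lower in nrpe1-11, and dashed lines mark log2 ratios of 1 and −1. Among the deepest genes, lower calls were more frequent than higher ones.

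Depth set which differences could be seen. At 100 summed counts the smallest ratio whose interval lies above 1 was 1.55, against 3.64 at 20 summed counts. Among the 497 genes with fewer than 40 summed counts, 61 were higher and 48 lower (21.9% called), and their median log2 ratio was 0.31. A gene with so few summed counts can reach 20 in only 1 library, so each of these entered through its higher count. Their share called and their median therefore follow in part from the filter, which 586 genes passed only in nrpe1-11 and 287 only in nrpd1-3. Among the 386 genes with at least 160 summed counts, 11 were higher and 27 lower (9.84%), and their median was −0.04. The plot of ratios by depth shows the largest ratios among genes with few counts.

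Of 46 listed nuclear genes for photosystem and light-harvesting proteins 44 were measured, 4 met the rule as higher in nrpe1-11 and 0 as lower, beside 5.49% higher and 5.14% lower among all compared genes. Under library totals 1 met it. Few members thus reached the 2-fold limit, and the list is described by its ratios: the median was 0.59 on the log2 scale, beside 0.06 over all genes. All 44 log2 ratios lay above 0, from 0.01 to 1.61, where 54.1% of all compared genes did, and 40 did so under library totals. Summed over the list, levels were 16723 CPM in nrpe1-11, 10964 CPM in nrpd1-3 and 13661 CPM in Col-0, so the summed Col-0 level lay between the mutants. Abundant genes weigh most in this sum, and single genes did not all share its order. In Col-0 CAB1 was above both mutants (3104 CPM, against 2864 in nrpe1-11 and 1881 in nrpd1-3). LHCB2.1 (AT2G05100), named after its values were seen, was below both (148 CPM, against 292 and 226). In NRO 43 of the 44 genes had log2 ratios above 0, as did 1379 of all 2858 genes. Their NRO median was 0.29, beside −0.02 over all genes. By the rule 0 differed in NRO, beside 1.78% higher and 2.31% lower over all genes, so few calls were to be expected.

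Within the photosystems, the member with the highest ratio was PSBQA (AT4G21280), an extrinsic protein of the oxygen-evolving complex of photosystem II. It had 41 counts in nrpe1-11, 11 in nrpd1-3 and 14 in Col-0, a ratio of 3.39 (counting interval 1.71 to 7.32). NPQ4 (AT1G44575), the PsbS protein needed to dissipate excess light as heat, had 36, 14 and 20 counts in nrpe1-11, nrpd1-3 and Col-0 and a ratio of 2.34 (1.23 to 4.70). On the photosystem I side, the antenna protein gene LHCA1 (AT3G54890) had 397, 175 and 286 counts, a ratio of 2.06 (1.72 to 2.48). PSAH2 (AT1G52230), a subunit at the docking site of the mobile antenna, had 38, 16 and 17 counts and a log2 ratio of 1.03. In all 4 genes nrpe1-11 was the highest of the 3 libraries. The most abundant antenna gene, CAB1 (AT1G29930), had 1501 counts in nrpe1-11, 897 in nrpd1-3 and 1678 in Col-0, and its log2 ratio of 0.61 did not meet the rule. Members of the LHCB1 family are nearly identical, and reads that fit several of them were counted for none.

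Calvin cycle genes, which fix carbon dioxide in the chloroplast stroma, had a median log2 ratio of 0.75 over 17 measured of 18 listed. All 17 log2 ratios lay above 0 (54.1% of all compared genes did), and 2 genes were higher and 0 lower, beside 5.49% higher and 5.14% lower over all genes. RBCS1A (AT1G67090), a small subunit of Rubisco, had 633 counts (1208 CPM) in nrpe1-11, 258 (541 CPM) in nrpd1-3 and 538 (995 CPM) in Col-0, a ratio of 2.23 (1.93 to 2.59). PRK (AT1G32060), which regenerates the acceptor of carbon dioxide, had 128 counts in nrpe1-11, 54 in nrpd1-3 and 56 in Col-0, a ratio of 2.16 (1.56 to 3.02). Rubisco activase, RCA (AT2G39730), had 927, 499 and 678 counts and a log2 ratio of 0.75. The aldolase gene FBA2 (AT4G38970) had 307, 165 and 226 counts and likewise 0.75. The last pair did not meet the rule, although their counting intervals, 1.51 to 1.89 and 1.4 to 2.06, lay above 1. The RBCS genes share sequence, and reads that fit several of them were counted for none, so the level of each is uncertain. In NRO all 17 genes had log2 ratios above 0, as did 1379 of all 2858 genes. Their NRO median was 0.45, beside −0.02 over all genes, and 0 met the rule, beside 1.78% higher and 2.31% lower.

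Chlorophyll synthesis genes were less uniform. Of 8 measured of 13 listed, 1 was higher (5.49% over all genes), 0 were lower, and the median log2 ratio was 0.46. PORB (AT4G27440), the light-dependent protochlorophyllide reductase of green leaves, had 74 counts in nrpe1-11, 31 in nrpd1-3 and 12 in Col-0, a ratio of 2.17 (1.41 to 3.42). CRD1 (AT3G56940), the cyclase subunit, had 188, 87 and 122 counts and a log2 ratio of 0.96. GUN5 (AT5G13630), a subunit of magnesium chelatase, had 530, 325 and 370 counts and a log2 ratio of 0.57. HEMA1 (AT1G58290), glutamyl-tRNA reductase at the entry to the pathway, went the other way with 175 counts in nrpe1-11, 206 in nrpd1-3 and 174 in Col-0, a log2 ratio of −0.37 that did not meet the rule. In NRO 1 of the 8 genes met the rule as higher, beside 1.78% over all genes, and the median log2 ratio was 0.61.

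These 3 lists depend on the scaling. Under library totals their medians were 0.38, 0.54 and 0.25 for the photosystem, Calvin cycle and chlorophyll lists, still above the median of all genes of −0.15, but only PSBQA still met the rule. Mesophyll markers moved with these lists, with summed levels of 5840 CPM in nrpe1-11, 3469 CPM in nrpd1-3 and 5353 CPM in Col-0. RBCS1A, CAB1 and RCA belong to both, and the part of leaf composition in the difference was not tested.

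**Figure D2:**
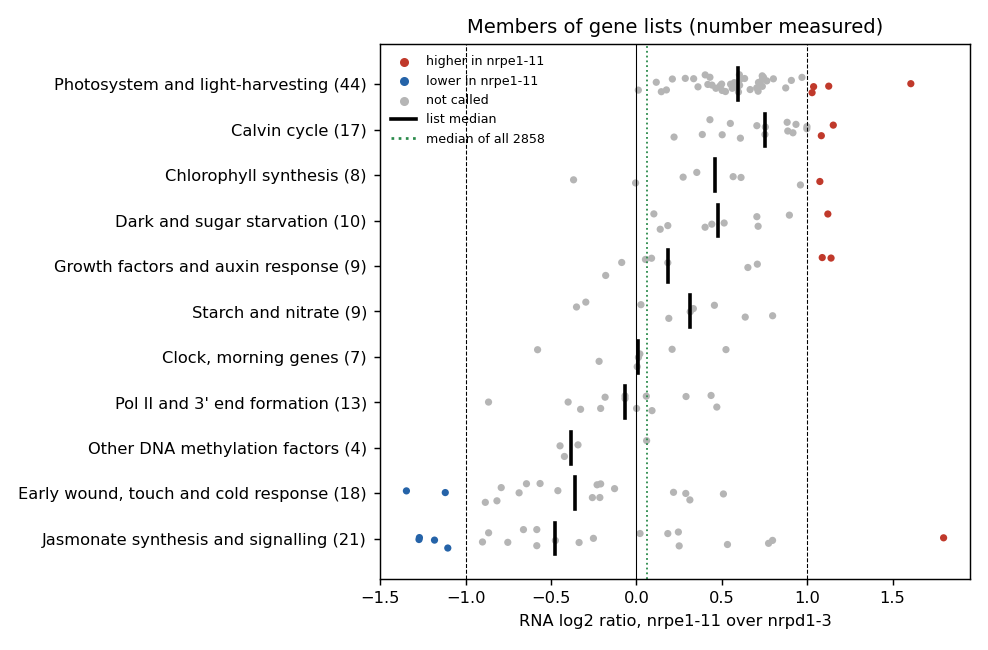
RNA log2 ratio, nrpe1-11 over nrpd1-3 (horizontal axis), of each measured member of 11 gene lists (rows, with the number measured). Points are genes, red where higher and blue where lower in nrpe1-11 by the size rule, black bars are list medians, the dotted line is the median of all 2858 genes, and vertical scatter within a row has no meaning. Photosystem and Calvin cycle members all lie above 0 under this scaling, and 13 of 21 jasmonate members lie below 0.

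Of 11 listed genes that respond to darkness and sugar shortage 10 were measured, and 1 was higher by the rule, beside 5.49% of all genes. All 10 log2 ratios lay above 0, where 54.1% of all compared genes did, with a median of 0.48. The gene that met the rule was BT2 (AT3G48360), a BTB and TAZ domain protein that responds to sugar and nitrogen, with 153 counts in nrpe1-11, 63 in nrpd1-3 and 56 in Col-0, a ratio of 2.21 (1.64 to 3.01). BXL1 (AT5G49360), a cell-wall xylosidase, had 332, 211 and 84 counts, and TPS8 (AT1G70290), a trehalose phosphate synthase family member, had 250, 167 and 144. ASN1 (AT3G47340), the dark-induced asparagine synthetase, had 245, 196 and 203 counts and a log2 ratio of 0.18. In the NRO libraries the same 10 genes had a median log2 ratio of 1.01, beside −0.02 over all compared genes. Of the 10, 6 met the rule as higher in NRO, beside 1.78% of all compared genes.

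Among growth factors and auxin response genes 9 of 16 were measured. Of the 9, 2 were higher and 0 lower, beside 5.49% higher and 5.14% lower over all genes. The median log2 ratio was 0.18, beside 0.06 over all genes. HBI1 (AT2G18300), a growth-promoting helix-loop-helix factor, had 63 counts in nrpe1-11, 25 in nrpd1-3 and 9 in Col-0, a ratio of 2.29 (1.42 to 3.80). PIF7 (AT5G61270), a phytochrome-interacting factor, had 28, 11 and 18 counts and a ratio of 2.32 (1.12 to 5.15). Its relatives PIF4 (AT2G43010) and PIL6 (AT3G59060) had log2 ratios of −0.18 and −0.09. Nascent RNA of PIF7 did not share this difference, with 266 NRO counts in nrpe1-11 and 304 in nrpd1-3. Starch and nitrate genes (9 of 16 measured, median 0.32) and morning clock genes (7 of 12, median 0.01) had no member that met the rule. Over all genes 10.6% met it. The morning clock factor CCA1 (AT2G46830) had 56 counts in nrpe1-11, 77 in nrpd1-3 and 26 in Col-0. None of the 14 evening clock genes reached 20 counts in either mutant. FSD1 (AT4G25100), a superoxide dismutase, and the locus of the copper-responsive microRNA MIR398c (AT5G14565) were the only measured members of the 10 genes of the copper list, with log2 ratios of 0.55 and 0.87. Of 10 flowering genes only SVP (AT2G22540), a repressor of flowering, was measured, with 46 counts in nrpe1-11, 35 in nrpd1-3 and 18 in Col-0.

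Of 33 listed genes for synthesis of and signalling by jasmonate, the wound and defence hormone, 21 were measured. By the rule 4 were lower in nrpe1-11 and 1 was higher, beside 5.14% lower and 5.49% higher over all genes. The median log2 ratio was −0.47, with 13 members below 0 and 8 above. LOX3 (AT1G17420) and LOX4 (AT1G72520) are lipoxygenases at the first committed step. LOX3 had 161 counts (307 CPM) in nrpe1-11, 356 (747 CPM) in nrpd1-3 and 956 (1768 CPM) in Col-0, a ratio of 0.411 (0.339 to 0.497). LOX4 had 185, 364 and 1083 counts and a ratio of 0.462 (0.385 to 0.553). Levels of both were thus lowest in nrpe1-11, intermediate in nrpd1-3 and highest in Col-0.

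The same order of libraries held for the other lower genes. CYP94B3 (AT3G48520), which inactivates the active hormone conjugate, had 17 counts in nrpe1-11, 40 in nrpd1-3 and 130 in Col-0, a ratio of 0.387 (0.206 to 0.698). JAZ7 (AT2G34600), a member of the JAZ repressor family named after its values were seen, had 10, 23 and 81 counts and a log2 ratio of −1.18. It was the only one of 7 measured JAZ genes to meet the rule, and the others are likewise named after their values were seen. JAZ1, JAZ2, JAZ3, JAZ5 and JAZ6 had log2 ratios of −0.25, −0.58, −0.58, −0.66 and −0.75, and JAZ9 had 0.25. The exception was AOC1 (AT3G25760), an allene oxide cyclase of the same synthesis branch, with 28 counts in nrpe1-11, 6 in nrpd1-3 and 105 in Col-0. Its RNA ratio was 4.25 (1.72 to 12.5) while its NRO counts were 916 in nrpe1-11 and 949 in nrpd1-3. AOC genes are close copies, and reads that fit several of them were counted for none. In nascent RNA 19 of the 21 genes had log2 ratios below 0, as did 1479 of all 2858 genes. Of the 21, 4 met the rule as lower in NRO, beside 2.31% over all genes, and the median was −0.56.

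**Figure D3:**
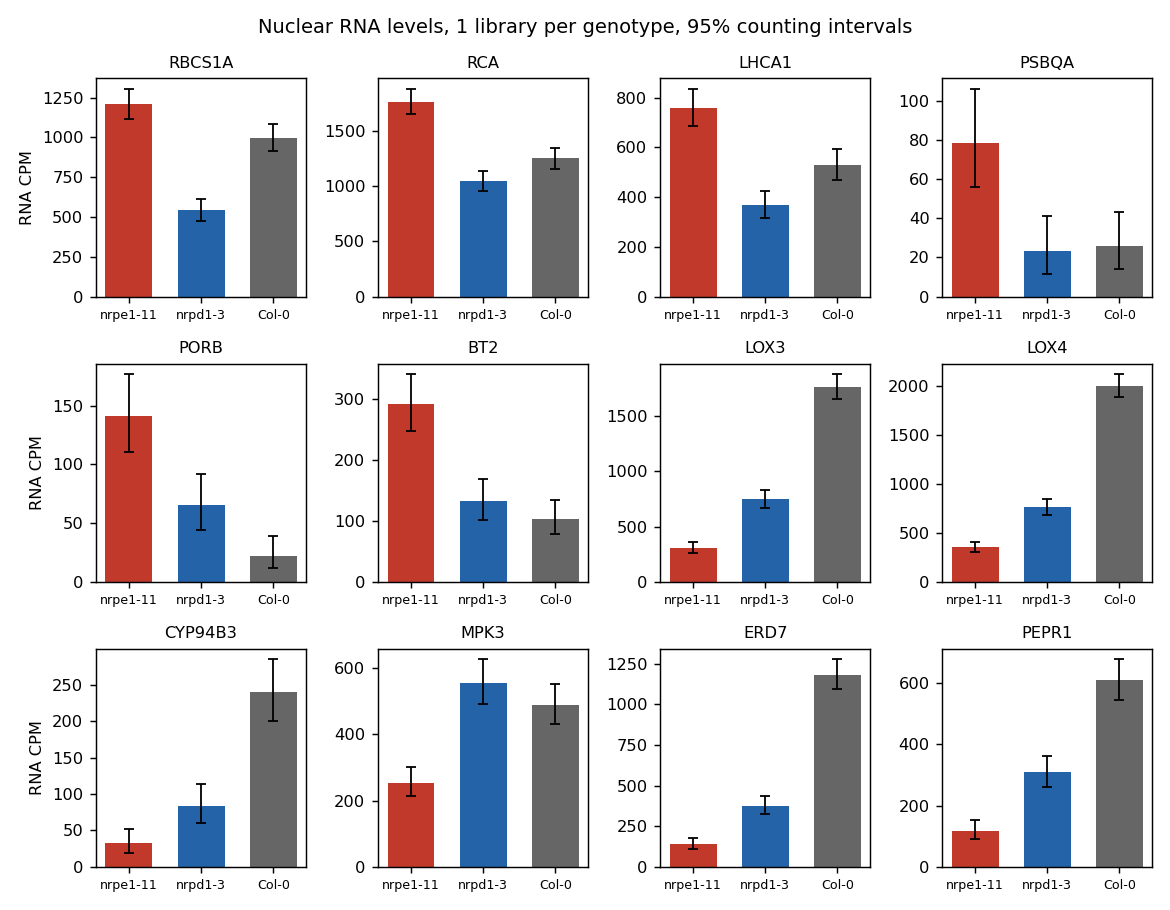
RNA level in CPM (vertical axes, each from 0) of 12 genes in nrpe1-11, nrpd1-3 and Col-0, 1 library each, with exact 95% Poisson intervals of the count as error bars. Photosynthesis genes and BT2 are highest in nrpe1-11, while LOX3, LOX4, CYP94B3, ERD7 and PEPR1 are lowest there and highest in Col-0.

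Early response genes, rapidly induced by wounding, touch or cold, had a median log2 ratio of −0.36 over 18 measured of 24 listed, with 14 log2 ratios below 0. Of the 18, 2 were lower and 0 higher, beside 5.14% lower and 5.49% higher over all genes. The lower genes numbered 5 under library totals and 1 where at least 50 counts were required in either library. MPK3 (AT3G45640), a stress-activated MAP kinase, had 133 counts in nrpe1-11, 265 in nrpd1-3 and 264 in Col-0, a ratio of 0.457 (0.368 to 0.564). CBF1 (AT4G25490), a cold-response activator, had 10, 26 and 9 counts and a ratio of 0.350 (0.151 to 0.750). For both, nrpd1-3 had the highest count of the 3 libraries. WRKY33 (AT2G38470), a defence regulator, had 343 counts in nrpe1-11, 551 in nrpd1-3 and 629 in Col-0, a log2 ratio of −0.82 that did not meet the rule, though it did under library totals (−1.03) and with a 1.5-fold limit. TCH3 (AT2G41100), a calmodulin-like protein, had 267, 360 and 384 counts and a log2 ratio of −0.56. In NRO 16 of the 18 genes had log2 ratios below 0, as did 1479 of all 2858 genes. Their NRO median was −0.32, beside −0.02 over all genes, and 0 met the rule, beside 1.78% higher and 2.31% lower.

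Salicylic acid genes were mostly too low to compare, with 5 of 17 measured. By the rule 1 was higher and 1 lower, beside 5.49% higher and 5.14% lower over all genes. WRKY70 (AT3G56400), a regulator downstream of salicylic acid, was higher, with 125 counts in nrpe1-11, 55 in nrpd1-3 and 29 in Col-0. Its log2 ratio of 1.02 was just above the limit and was 0.81 under library totals. PAD4 (AT3G52430), a lipase-like immune regulator, was lower, with 10, 25 and 18 counts and a ratio of 0.364 (0.156 to 0.785), while its NRO counts were 752 in nrpe1-11 and 735 in nrpd1-3. Of the chaperones 4 of 15 were measured and 1 was higher, beside 5.49% over all genes. It was the constitutive HSC70-1 (AT5G02500), with 248, 107 and 202 counts and a ratio of 2.11 (1.67 to 2.67). The small heat shock genes of the list and HSP70B, named after its values were seen, were at 0 counts in both mutants. KCS6 (AT1G68530), a wax synthesis enzyme used as an epidermis marker, had 46 counts in nrpe1-11, 18 in nrpd1-3 and 19 in Col-0 and was higher. The epidermis list as a whole summed to 89, 49 and 59 counts over 4 genes. Of the 4 genes, 2 were measured and 1 was higher, beside 5.49% over all genes. The myrosin cell marker TGG1 (AT5G26000), a myrosinase, had 58 counts in nrpe1-11, 41 in nrpd1-3 and 110 in Col-0, and TGG2 (AT5G25980) had 20, 18 and 79. The only root marker measured, the glucosidase PYK10 (AT3G09260), had 61, 32 and 10 counts, and neither of these lists had a gene past the rule. Over all genes 10.6% were past it.

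The silencing machinery itself was sparsely covered. Of 24 listed genes for polymerase subunits and other factors of the RdDM pathway (RNA-directed DNA methylation) 2 were measured. Of the 2, 1 was higher and 0 lower, beside 5.49% higher and 5.14% lower over all genes. SUVH9 (AT4G13460), a methyl-DNA-binding protein that helps recruit Pol V, had 22 counts in nrpe1-11, 6 in nrpd1-3 and 6 in Col-0, a ratio of 3.34 (1.31 to 10.1), and reached the count minimum in nrpe1-11 only. Its NRO counts did not differ in that way, with 236 in nrpe1-11 and 250 in nrpd1-3. KTF1 (AT5G04290), an elongation-factor-like partner of Pol V transcripts, had 12, 20 and 19 RNA counts and a log2 ratio of −0.77. Of the other DNA methylation factors, CMT2 (AT4G19020), DME (AT5G04560), MOM (AT1G08060) and IBM1 (AT3G07610) were measured, with log2 ratios between −0.45 and 0.06 and none past the rule. Over all genes 10.6% were past it. None of 8 loci known to be silenced by DNA methylation reached 20 counts. SDC (AT2G17690), one of them, had 1 RNA count in nrpe1-11, 2 in nrpd1-3 and 0 in Col-0, beside 78, 69 and 0 NRO counts.

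For Pol II and the factors that form transcript 3′ ends, 13 of 25 genes were measured. By the rule 0 differed, beside 10.6% of all genes, so few calls were to be expected among 13. Under library totals 1 was lower. The median log2 ratio was −0.07, beside 0.06 over all genes, with a range from −0.87 to 0.47. NRPB1 (AT4G35800), the largest subunit of Pol II, had 80 counts in nrpe1-11, 52 in nrpd1-3 and 54 in Col-0. FCA (AT4G16280), an RNA-binding protein of 3′ end choice, had 47, 41 and 52 counts. The counting intervals of both ratios, 0.975 to 2.02 and 0.671 to 1.63, include 1, and ratios within those bounds are not excluded by counting error. PAPS1 (AT1G17980), a poly(A) polymerase named after its values were seen, was the lowest of the list at −0.87. It was called lower in nascent RNA, with 689 NRO counts in nrpe1-11 and 1890 in nrpd1-3 (log2 ratio −1.53).

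Noncoding and pseudogene classes added few calls. Among 11 pseudogenes 2 were lower in nrpe1-11 and 0 higher, beside 5.14% lower and 5.49% higher over all genes. AT3G44215 had 0 counts in nrpe1-11, 42 in nrpd1-3 and 0 in Col-0, at least 15.4-fold lower in nrpe1-11 with a floor of 3 counts per library. In nascent RNA it had 0, 213 and 0 counts, at least 75.1-fold lower. Annotated neighbours on either side had 0 counts in every library of both assays. SADHU1-2 (AT1G30835), of the Sadhu retroelement family and named after its values were seen, had 8 RNA counts in nrpe1-11, 22 in nrpd1-3 and 8 in Col-0, while its NRO counts were 162 in each mutant. Of 6 measured snoRNA genes 1 was higher, beside 5.49% over all genes. It was SNOR30 (AT5G51174), named after its values were seen, with 23, 6 and 21 RNA counts. No lncRNA, ncRNA, snRNA, rRNA or microRNA gene met the rule, beside 10.6% of all genes. The 18S locus AT3G41768 had 214889 counts in nrpe1-11, 146481 in nrpd1-3 and 380473 in Col-0, a log2 ratio of 0.42, and U1.5 (AT1G08115), a spliceosomal U1 RNA gene, had 1983, 1257 and 2508 counts and 0.52. Of the 12 listed ribosomal and spliceosomal RNA loci in the files, 8 were measured, with a median of 0.17. AT2G01021 and AT2G16586, annotated as protein-coding and next in abundance after the 18S locus, had 38235 and 10219 counts in nrpe1-11, 27099 and 9857 in nrpd1-3, and 55904 and 20542 in Col-0, with neither past the rule. The next most abundant genes, AT1G15405, AT3G41979 and AT2G35750, were not called either.

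Nascent RNA of the same genes was then set beside the RNA. The NRO libraries were deeper, at 7504294 nuclear gene counts in nrpe1-11, 8185846 in nrpd1-3 and 2687149 in Col-0. Over the 2858 genes, 117 met the rule in NRO (4.09%), 51 higher (1.78%) and 66 lower (2.31%). Of the 157 genes higher in RNA, 19 were higher in NRO, 137 were not called and 1 was lower. Of the 147 lower in RNA, 35 were lower in NRO, 112 were not called and 0 were higher. With NRO scaled by library totals the shared calls were 24 higher and 13 lower, so which direction was shared more often turned with the scaling. Genes higher in RNA had a median NRO log2 ratio of 0.32 (RNA 1.28), and those lower in RNA −0.71 (RNA −1.18), beside −0.02 for all compared genes. The RNA medians belong to genes picked for those RNA ratios, so a smaller NRO value follows in part from the choice, and the gap is no measure of a difference between the assays. The NRO interval lay wholly under a ratio of 2 for 127 of the 157 higher genes and wholly above 0.5 for 98 of the 147 lower genes. The same shares were not computed over all 2858 genes, of which 1.78% were higher and 2.31% lower in NRO. They are therefore not read as a trait of the called genes. Across all 2858 genes, which share the same libraries and are not independent, RNA and NRO log2 ratios had a correlation of r = 0.58 and rho = 0.59. Over the 386 genes with at least 160 summed RNA counts r was 0.74.

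**Figure D4:**
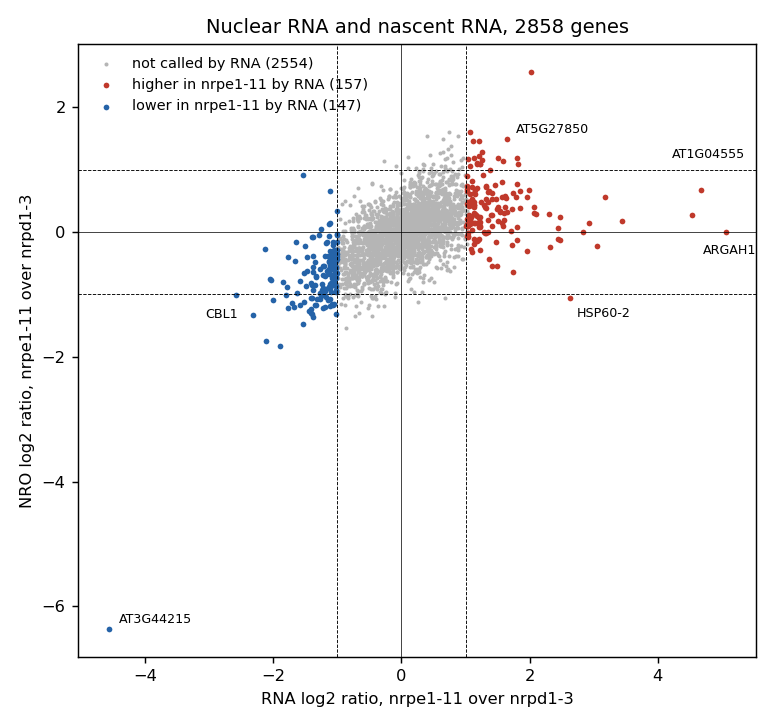
NRO log2 ratio (vertical axis) against RNA log2 ratio (horizontal axis), both nrpe1-11 over nrpd1-3, for 2858 genes, with a prior count of 2 that sets the position of genes at 0 counts. Red and blue points met the size rule in RNA as higher or lower in nrpe1-11, and dashed lines mark log2 ratios of 1 and −1. Of the red points 128 lie above 0 in NRO, and of the blue points 141 lie below 0. Over all 2858 genes 1379 lie above 0 in NRO and 1479 below.

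Among genes higher in both assays, the gene with the largest smaller ratio was AT5G27850, a protein-coding gene, with 162 RNA counts in nrpe1-11, 46 in nrpd1-3 and 7 in Col-0. Its RNA ratio was 3.20 (2.3 to 4.55) and its NRO ratio 2.81 (2.65 to 2.97), from 4652 NRO counts in nrpe1-11 and 1566 in nrpd1-3. CIPK3 (AT2G26980), a kinase regulated by calcium sensors of the CBL family, had 74, 27 and 18 RNA counts in nrpe1-11, nrpd1-3 and Col-0, with log2 ratios of 1.26 in RNA and 1.28 in NRO. CLC-A (AT5G40890), the vacuolar nitrate exchanger, had 79, 30 and 23 RNA counts, with 1.21 and 1.22. KELP (AT4G10920), a transcriptional coactivator, had 51, 12 and 4 counts, with 1.8 and 1.19. BBX15 (AT1G25440), a B-box factor, had 76, 28 and 14 counts, with 1.25 and 1.16, and NCED4 (AT4G19170), a carotenoid cleavage enzyme, had 55, 21 and 20 counts, with 1.18 and 1.11. For each of these 6 genes the count was highest in nrpe1-11 and lowest in Col-0. AT4G36850 and AT5G14120, both protein-coding, complete the 10 together with HBI1 and BT2 above. AT5G14120 departed from the order, with 133 RNA counts in nrpe1-11, 39 in nrpd1-3 and 61 in Col-0.

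The 10 genes lowest in both assays are given next. ERD7 (AT2G17840), a dehydration-induced protein, had 74 RNA counts in nrpe1-11, 180 in nrpd1-3 and 640 in Col-0, with log2 ratios of −1.39 in RNA and −1.32 in NRO. CBL1 (AT4G17615), a calcium sensor, had 11, 57 and 149 RNA counts, a ratio of 0.176 (0.0830 to 0.338), beside an NRO ratio of 0.399 (0.375 to 0.425). PEPR1 (AT1G73080), the receptor of the Pep danger peptides, had 62, 147 and 329 RNA counts, with log2 ratios of −1.35 and −1.16. XTH18 (AT4G30280), a xyloglucan-modifying enzyme, had 28, 69 and 132 counts, with −1.37 and −1.36, and S6K2 (AT3G08720), a ribosomal protein S6 kinase, had 30, 72 and 146 counts, with −1.34 and −1.16. In these genes the order was nrpe1-11 lowest, then nrpd1-3, then Col-0. CPK29 (AT1G76040), a calcium-dependent kinase, was highest in nrpd1-3, with 19 counts in nrpe1-11, 53 in nrpd1-3 and 42 in Col-0. The other 4 of these 10 genes, AT1G56660, AT5G22690, AT1G78280 and AT3G56410, are protein-coding genes with RNA log2 ratios from −1.58 to −1.12 and their highest count in Col-0.

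The 6 genes with the largest RNA ratios were picked for those ratios, so smaller NRO ratios follow in part from the choice. ARGAH1 (AT4G08900), an arginase, had 66 RNA counts in nrpe1-11, 0 in nrpd1-3 and 2 in Col-0, at least 20.02-fold higher in nrpe1-11 with the floor of 3 counts. Its NRO counts were 38 in nrpe1-11 and 36 in nrpd1-3, a ratio of 0.998 (0.616 to 1.62). AT1G04555 had 50, 0 and 0 RNA counts, at least 15.2-fold higher, beside 56 NRO counts in nrpe1-11 and 32 in nrpd1-3. AT5G22320 had 71 RNA counts in nrpe1-11, 1 in nrpd1-3 and 1 in Col-0, a ratio of 64.6 (11.2 to 2587), and an NRO log2 ratio of 0.28. In these 3 genes nearly all RNA counts came from the nrpe1-11 library alone.

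The next 3 genes had between 1 and 9 counts in nrpd1-3 and Col-0. AtRZ-1b (AT1G60650), a zinc-finger RNA-binding protein, had 32, 1 and 3 RNA counts in nrpe1-11, nrpd1-3 and Col-0, a ratio of 29.1 (4.86 to 1185), and an NRO log2 ratio of 0.18. AT5G19190 had 76, 6 and 5 counts, with log2 ratios of 3.18 in RNA and 0.57 in NRO. PDIL5-2 (AT1G35620), a protein disulfide isomerase family member, had 42, 3 and 9 counts, a ratio of 12.7 (4.07 to 64.2), and an NRO log2 ratio of −0.22. Genes annotated next to these 6 had at most 8 RNA counts in nrpe1-11. None of the 6 was called in NRO, where 19 of the 157 genes higher in RNA and 1.78% of all genes were called higher. That so many counts come from 1 library with no replicate leaves the size of these ratios without a check.

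Opposite calls were made for 1 gene. HSP60-2 (AT2G33210), a mitochondrial chaperonin, had 31 RNA counts in nrpe1-11, 3 in nrpd1-3 and 0 in Col-0, a ratio of 9.4 (2.93 to 48.1). In NRO it had 24 counts in nrpe1-11, 50 in nrpd1-3 and 8 in Col-0, or 2.57, 5.68 and 3.98 CPM. The NRO ratio was 0.454 (0.267 to 0.752).

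Of the 6 genes with the lowest RNA ratios 4 were also called lower in NRO, beside 35 of the 147 genes lower in RNA and 2.31% of all genes. With 6 genes picked for their RNA ratios, this is a description. AT3G44215, CBL1, AT1G67530 and NTMC2T6.2 (AT3G14590), a C2-domain membrane protein, were lower in both assays, with 0, 11, 4 and 5 RNA counts in nrpe1-11 and 42, 57, 31 and 26 in nrpd1-3. AT1G67530 had a ratio of 0.117 (0.0301 to 0.332) in RNA and 0.495 (0.459 to 0.533) in NRO. GGH2 (AT1G78680), a gamma-glutamyl hydrolase, had 6 RNA counts in nrpe1-11, 30 in nrpd1-3 and 18 in Col-0, and an NRO ratio of 0.830 (0.660 to 1.04). AT3G03030 had 4, 21 and 41 RNA counts and an NRO ratio of 0.591 (0.541 to 0.646), short of the limit.

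**Figure D5:**
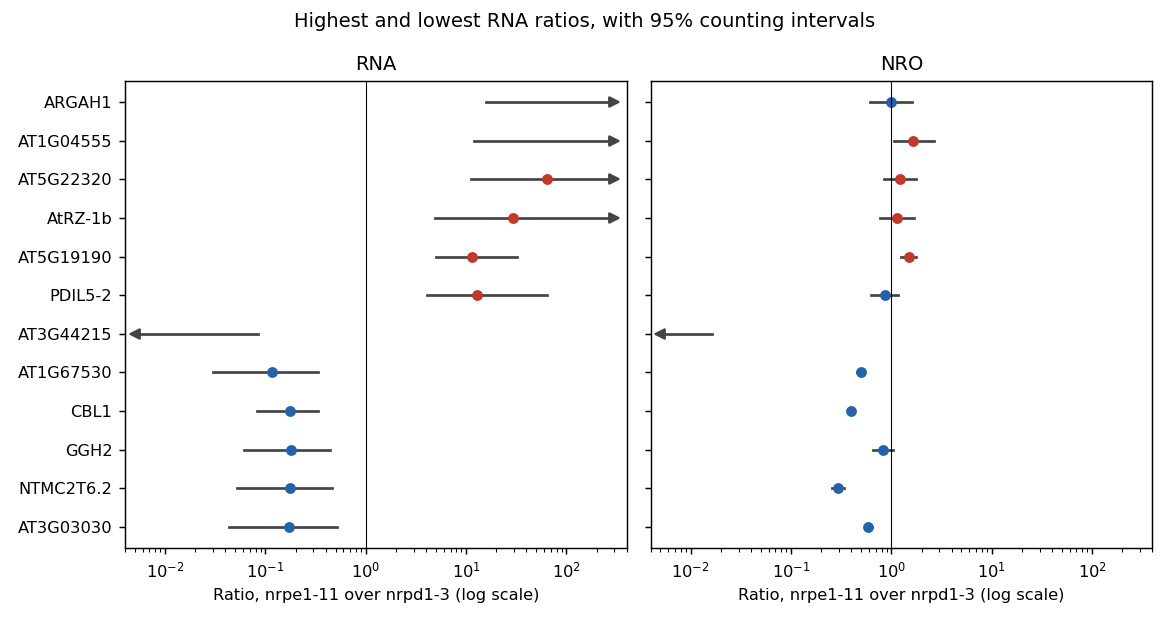
Ratios of nrpe1-11 over nrpd1-3 (horizontal axes, log scale) in RNA (left) and NRO (right) for the 6 genes with the highest and the 6 with the lowest RNA log2 ratios (rows). Points are ratios, lines are 95% counting intervals, arrows mark intervals that run past the axis, and genes at 0 counts in 1 mutant have no point. The upper 6 lie between ratios of 0.856 and 1.65 in NRO, and all 6 lower genes lie below 1.

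The place of Col-0 is given as a description, since choosing genes for a high count in 1 mutant by itself makes a still higher Col-0 level rare among the higher genes. Among the 147 genes lower in nrpe1-11, the Col-0 level was above both mutants for 101 (68.7%), between them for 40 and below both for 6. Among the 157 higher genes it lay between the mutants for 83 (52.9%), below both for 69 and above both for 5. Over all 2858 genes the shares were 30.8% above both, 46.3% below both and 23.0% between.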

How the data were processed

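The authors deposited raw HTSeq counts, 1 whole number for each gene and library. Per the submitters' processing notes, the build was TAIR10 and the tools included TopHat2 2.1.0 and Trimmomatic 0.33. For HTSeq the version, strand setting, mode and annotation release are not given in the sources used here. Genes that overlap or lie antisense to each other may therefore share reads. Reads aligned more than once (6428879 alignments in RNA of nrpe1-11, 5226359 in nrpd1-3) and reads in no gene (28.6% and 29.0% of unique alignments) were tallied on 5 summary lines and left out. Organelle genes had 0 counts. Gene names and classes come from RefSeq TAIR10.1, in which all 2858 genes were found.

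Library sizes were scaled by TMM over the 3 RNA libraries in edgeR 4.0.16 (R 4.3.3), and likewise for NRO. Log2 ratios used a prior count of 2. Intervals are exact, binomial (Clopper-Pearson) for ratios and Poisson for levels, at 95%. They and the floor of 3 counts (5.72 CPM in RNA of nrpe1-11, 6.29 in nrpd1-3) cover counting error only, because 1 library per group gives no replicate spread. Reads amplified by PCR and carrying no molecular identifier can stem from 1 molecule, which would make the intervals too narrow. No p-value was computed, and the size rule was tested on simulated data. Other analysis used Python 3.11.15, pandas 2.3.3 and scipy 1.17.1. The alternatives tried were 4 other scalings (DESeq2 1.42.0 size factors among them), other filters, prior, fold and interval, and NRO thinned or rescaled.

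Genes named are the targets, the 10 highest and 10 lowest in both assays with at least 50 RNA counts, the 6 highest and 6 lowest RNA ratios, opposite calls, the most abundant genes and up to 4 members of each list. Others are marked as named after their values were seen. The genes compared and the 29 lists were chosen with earlier results of these data known, so their counts are descriptions. No sequence was used here.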

Additional observations from a re-analysis of the deposited data

Results flagged for a closer look

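The RNA and NRO log2 ratios of HSP60-2 (AT2G33210), a mitochondrial chaperonin, lay on opposite sides of the size rule, at 2.63 in RNA and −1.06 in NRO of nrpe1-11 over nrpd1-3. The RNA ratio rests on 31 counts in nrpe1-11 and 3 in nrpd1-3. The NRO ratio rests on 24 and 50. With 1 library per group, the difference between the assays was not tested.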

How the results depend on the processing

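No paired analysis was possible because each group has 1 library and the labels carry no replicate numbers, and for the same reason no library could be left out. Scaling by library totals gave 94 genes higher and 260 lower and a median log2 ratio of −0.15. It gave 1 photosystem, 0 Calvin cycle and 0 chlorophyll genes higher, 1 Pol II and 3′ end gene and 5 early response genes lower, and 12 genes higher in both assays. TMM over the mutants alone left 2 photosystem genes higher. Requiring 50 counts in either library gave 51 higher and 60 lower (111 in all), with 1 photosystem gene higher, 0 jasmonate genes higher and 2 lower, 1 early response gene lower and 14 genes lower in both assays. A mean of at least 20 gave 96 higher and 195 in all, 0 jasmonate genes higher, 1 early response gene lower and 23 lower in both assays. No filter gave 318 and 277 (595), 2 chlorophyll genes higher and 56 lower in both assays. A prior count of 0.5 gave 4 Calvin cycle genes higher. A 1.5-fold limit gave 308 and 307 (615), 22 photosystem, 11 Calvin cycle, 3 chlorophyll and 2 jasmonate genes higher, 1 Pol II, 7 jasmonate and 6 early response genes lower, and 32 higher in both assays. NRO scaled by totals gave 24 higher and 13 lower in both assays. At least 20 counts in both libraries, chosen after seeing the data, gave 38 and 60 (98), 1 photosystem and 0 jasmonate genes higher, 2 jasmonate and 1 early response genes lower, and 12 and 12 genes higher and lower in both assays. Looser or stricter limits and filters change how many genes can be called by their own construction. Library totals shift all RNA log2 ratios by −0.22 against a fixed limit, so fewer genes pass as higher and more as lower by construction. Why the scalings differ was not tested. No named gene that met the rule changed direction, but 13 fell under it with library totals. With NRO thinned to the RNA totals r was 0.46.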

Other observations

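Further genes past the size rule fall outside the lists above. They were chosen after their values were seen and carry no test. No theme was tested for them. Among the higher genes, GLK2 (AT5G44190), a transcription factor that activates photosynthesis genes, had 40 RNA counts in nrpe1-11, 9 in nrpd1-3 and 12 in Col-0, and 555 against 245 NRO counts in nrpe1-11 and nrpd1-3. TOC132 (AT2G16640) and TOC64-III (AT3G17970), parts of the import apparatus of the outer envelope, had 32 and 24 RNA counts in nrpe1-11 against 8 and 6 in nrpd1-3. CP29 (AT3G53460), an RNA-binding protein of chloroplasts, had 32 counts in nrpe1-11, 9 in nrpd1-3 and 10 in Col-0. HDS (AT5G60600), an enzyme of plastid isoprenoid synthesis, had 58, 20 and 31. The aquaporin genes PIP1B (AT2G45960) and PIP1C (AT1G01620) were higher as well, with 66 and 43 counts in nrpe1-11 against 27 and 18 in nrpd1-3. SHM7 (AT1G36370), a serine hydroxymethyltransferase family member, had 24, 4 and 8 RNA counts and the largest NRO difference of the genes higher in RNA, 516 against 80 counts (log2 ratio 2.57).

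Among the lower genes, likewise chosen after their values were seen, RBOHD (AT5G47910), the oxidase of the defence oxidative burst, had 181 RNA counts in nrpe1-11, 352 in nrpd1-3 and 439 in Col-0. CPK28 (AT5G66210), a calcium-dependent kinase, had 296, 587 and 728, and ACA1 (AT1G27770), a calcium pump, had 255, 560 and 586. The receptor-like kinase genes CRK10 (AT4G23180) and CRK11 (AT4G23190) had 191 and 17 counts in nrpe1-11 against 369 and 44 in nrpd1-3. PUB23 (AT2G35930), a ubiquitin ligase that dampens immunity, had 63, 127 and 144. RRTF1 (AT4G34410), an ethylene-response-type factor, had 47, 97 and 205 RNA counts and also met the rule in NRO, with 10519 counts in nrpe1-11 against 21028 in nrpd1-3. CSLB04 (AT2G32540), a cellulose-synthase-like gene, ran against nascent RNA, with 7 RNA counts in nrpe1-11 and 22 in nrpd1-3 beside 148 and 73 NRO counts (log2 ratio 0.91).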
